A study of Mus musculus with 22 samples.

Results

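The comparison described here is the step across lights off in the liver of adiponectin-null mice: 4 arrays of livers taken at ZT14 (14 h after lights on) minus 4 arrays of livers taken at ZT10 (10 h after lights on). The members are all features of the array, compared in those 8 of the 22 arrays of the series. Lights went off between the groups, 12 h after lights on. Each array held RNA of whole liver, and expression was measured at 22206 transcript clusters (features) of the Clariom S mouse array. Of these, 19572 carried 1 gene symbol and 2634 carried none, and together they represented 19505 genes.

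All mice in both groups were male, 3 to 8 months old, and carried a global knockout of Adipoq (B6;129-Adipoqtm1Chan/J, on a C57BL/6J background), so the hormone adiponectin, which fat cells release, was missing in the ZT10 and the ZT14 group alike. They lived in groups with 12 h of light a day and chow and water always present, were untreated, and were killed at 4-h intervals. The series covers 6 times of day, with 3 or 4 mice and as many arrays at each. Wild-type mice were not analysed here, so the values describe knockout liver only.

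In the liver, time of day is set by a transcriptional loop: Arntl and Clock activate the Per, Cry and Nr1d genes through E-box sequences, the Per and Cry proteins repress that activity, and the Nr1d (REV-ERB) proteins repress Arntl. Mice are active and eat mostly in the dark, and food intake, body temperature and adrenal corticosterone follow daily cycles of their own that also reach liver genes. In mouse liver the REV-ERB genes are known to peak in the light phase and heat shock genes in the dark phase, and feeding turns glycogen and fat metabolism from use to storage.

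Among the 8 arrays, ZT14b and ZT14d stood apart from the other 6. Tff3, which encodes a secreted peptide of mucous epithelia, was at log2 levels of 13.26 and 13.63 in them, against 3.08 and 3.25 in ZT14a and ZT14c and 3.17 to 4.73 in the ZT10 arrays. On the first principal component of the 8 arrays, which held 32.3% of the variance, they lay at 55.4 and 46.1 and the others between -33.3 and 1.33. Tff3 was as high in 3 arrays of other times, which makes 5 of the 22. Results are therefore given with and without ZT14b and ZT14d, called the pair in what follows, and a call that was lost without them is named as such.

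The hepatocyte markers did not separate the groups. Alb stood between 19.70 and 19.86 in all 8 arrays, 0 of 8 measured hepatocyte markers passed the test (0 at an unadjusted p under 0.05), and their summed log2 level was 21.89 to 21.97 at ZT10 and 21.87 to 21.95 at ZT14. Adipoq itself was at 3.30 to 3.52 at ZT10 and 3.33 to 4.69 at ZT14, levels that cannot be told from background, because the lower quartile of all values of these 8 arrays was 3.79 and no detection calls were at hand. Liver makes little of this RNA, so its level checks nothing about the genotype. In whole tissue, fewer cells of a type and less RNA per cell cannot be told apart.

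Between ZT10 and ZT14, 381 of 22206 features (1.72%) differed at an adjusted p under 0.05 (limma, Benjamini-Hochberg over all features). The features higher at ZT14 numbered 214 (0.964%) and those lower 167 (0.752%), which amount to 198 and 153 genes. The median difference over all features was -0.015 on the log2 scale, whereas the median size of a called gene's difference was 1.06, and 202 of the 351 called genes differed at least 2-fold. All 4 ZT14 arrays lay above all 4 ZT10 arrays for 181 of the 198 higher genes and below them for 143 of the 153 lower genes. Over all features, such separation occurred upward in 3.77% and downward in 3.76%.

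The number of calls depended on the arrays. Without ZT14b and ZT14d, 105 features passed (0.473%; 52 higher, 0.234%, and 53 lower, 0.239%), of which 86 were among the 381. Every one of the 381 kept its sign in that fit, which has fewer arrays as well as no ZT14 array with high Tff3. The high-Tff3 arrays of other times stayed in it and share in its estimate of the spread. Leaving out 1 array moved the count of features by over 1.5 times in 5 cases: 229 without ZT10b, 208 without ZT10c, 235 without ZT10d, 188 without ZT14b and 189 without ZT14d. Among the 198 higher genes, 97 (49.0%) had both ZT14b and ZT14d above both other ZT14 arrays, against 23.0% of all genes. Among the 153 lower genes, 51 (33.3%) had them below both, against 22.0% of all genes.

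**Figure D1:**
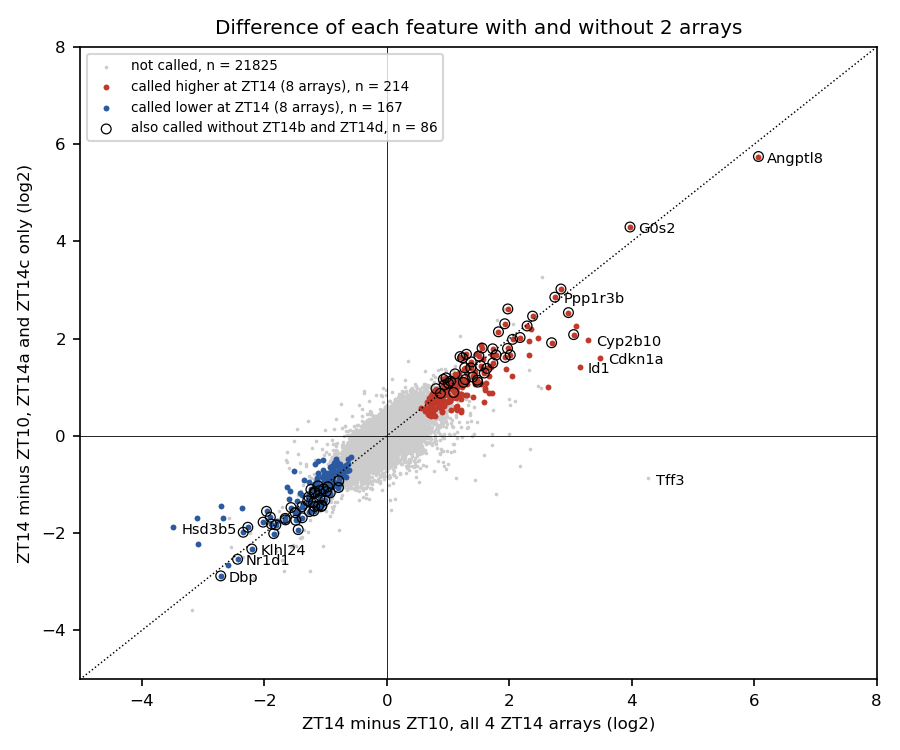
Each point is 1 feature, with its ZT14 minus ZT10 difference in log2 from all arrays on the x axis and without ZT14b and ZT14d on the y axis, red for the 214 called higher, blue for the 167 called lower, grey for the others, and ringed for the 86 also called without the pair. All called features kept their sign, from Angptl8 at 6.07 and 5.75 to Hsd3b5 at -3.48 and -1.88, while the uncalled Tff3 lay at 4.27 and -0.87.

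Angptl8, which encodes a secreted protein that restrains lipoprotein lipase and is known to be induced by feeding, had the largest difference of all called genes. Its log2 levels at ZT10 were 9.14, 7.62, 7.84 and 8.17, and at ZT14 they were 13.72, 14.97, 14.16 and 14.20. The lowest ZT14 array was thus far above the highest ZT10 array. The 2 ZT14 arrays with high Tff3 were the higher ones, though ZT14d at 14.20 lay next to ZT14c at 14.16. The difference was 6.07 ± 0.61 (SE, n = 4 and 4), or 67.2-fold (adjusted p = 6.23e-06), and 5.75 without ZT14b and ZT14d (adjusted p = 0.00094).

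G0s2, an inhibitor of the main triglyceride lipase of lipid droplets, followed. It was at 8.59, 8.89, 7.04 and 7.09 at ZT10 and at 12.10, 12.01, 12.30 and 11.09 at ZT14. The groups did not overlap, and the spread at ZT10 was wider than the spread at ZT14. G0s2 rose 15.7-fold (3.97 ± 0.52, adjusted p = 0.000137; 4.30 without the pair, adjusted p = 0.0015).

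Ppp1r3c and Ppp1r3b encode subunits that bring protein phosphatase 1 to glycogen and so favour glycogen synthesis. Ppp1r3c was at 9.87, 9.80, 9.27 and 9.97 at ZT10 and at 12.47, 12.36, 13.03 and 12.43 at ZT14. Ppp1r3b was at 12.36, 10.61, 11.09 and 11.08 at ZT10 and at 14.01, 13.95, 14.27 and 13.89 at ZT14. Each gene's ZT14 arrays lay above every ZT10 array. For Ppp1r3c ZT14c stood above the other ZT14 arrays, and for Ppp1r3b ZT10a above the other ZT10 arrays. Ppp1r3c rose 7.19-fold (2.85 ± 0.26, adjusted p = 2.19e-06, the lowest of the members named) and Ppp1r3b 6.70-fold (2.75 ± 0.31, adjusted p = 2.83e-05), and both calls stood without the pair (adjusted p = 9.21e-05 and 0.00106).

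Tubb2a, a beta-tubulin, Epha2, a receptor tyrosine kinase for ephrins, and Rcan1, a regulator of calcineurin, rose by 3.05 ± 0.39, 2.97 ± 0.33 and 2.69 ± 0.35. Tubb2a was at 6.49, 7.06, 6.43 and 7.24 at ZT10 and at 8.69, 10.51, 9.09 and 11.14 at ZT14. Epha2 was at 6.01, 5.30, 4.58 and 6.02 at ZT10 and at 7.83, 8.97, 8.20 and 8.78 at ZT14. For all 3 genes ZT14b and ZT14d were the higher ZT14 arrays, but ZT14a and ZT14c also lay above every ZT10 array, and the calls stood without the pair (adjusted p = 0.00415, 0.00226 and 0.00832). Tsc22d3, the glucocorticoid-induced leucine zipper, rose by 2.38 ± 0.41, and here the highest array was ZT14c at 12.55.

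The other 7 of the 15 largest higher genes lost their calls without ZT14b and ZT14d. Cdkn1a, the cell cycle inhibitor p21, was at 3.51 to 3.71 at ZT10, which is background, and at 4.90, 8.89, 5.51 and 9.02 at ZT14. The 2 arrays with high Tff3 were the higher ones, and the difference was 3.48 ± 0.76 with them (adjusted p = 0.0156) and 1.60 without (adjusted p = 0.437). Since the ZT10 level cannot be told from background, both differences, and the gene's place among the 15, can be read only as lower bounds. Id1, which blocks the DNA binding of basic helix-loop-helix proteins, showed the same split, with 7.75 and 8.57 in ZT14a and ZT14c and 12.13 and 11.13 in ZT14b and ZT14d, against 6.08 to 7.22 at ZT10. Id1 rose by 3.15 ± 0.72 (adjusted p = 0.0215), and its difference without the pair was 1.42 (adjusted p = 0.491). Its relative Id3 rose by 3.08 ± 0.54, and its difference without the pair was 2.25 (adjusted p = 0.127), which passed without all 5 arrays with high Tff3 (adjusted p = 0.0469).

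Cyp2b10, a drug-metabolising cytochrome P450, rose by 3.29 ± 0.85 (adjusted p = 0.0451), and Slc16a5, of the monocarboxylate transporter family, by 2.63 ± 0.59 (adjusted p = 0.0194). Without the pair their differences were 1.98 (adjusted p = 0.533) and 1.02 (adjusted p = 0.499). Chka, the choline kinase that starts phosphatidylcholine synthesis, was near background at ZT10 (3.61 to 4.09) and reached 5.02, 7.16, 6.13 and 6.63 at ZT14. It rose by 2.33 ± 0.45 (adjusted p = 0.00672; without the pair 1.67, adjusted p = 0.207), again only as lower bounds. Calls were also lost on leaving out 1 array: Cdkn1a without ZT14b or ZT14d (adjusted p = 0.0841 in each case), Id1 and Slc16a5 without ZT10c, ZT10d, ZT14b or ZT14d (up to 0.107 and 0.102), and Cyp2b10 without ZT10b, ZT10c, ZT10d, ZT14b or ZT14d (up to 0.181).

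**Figure D2:**
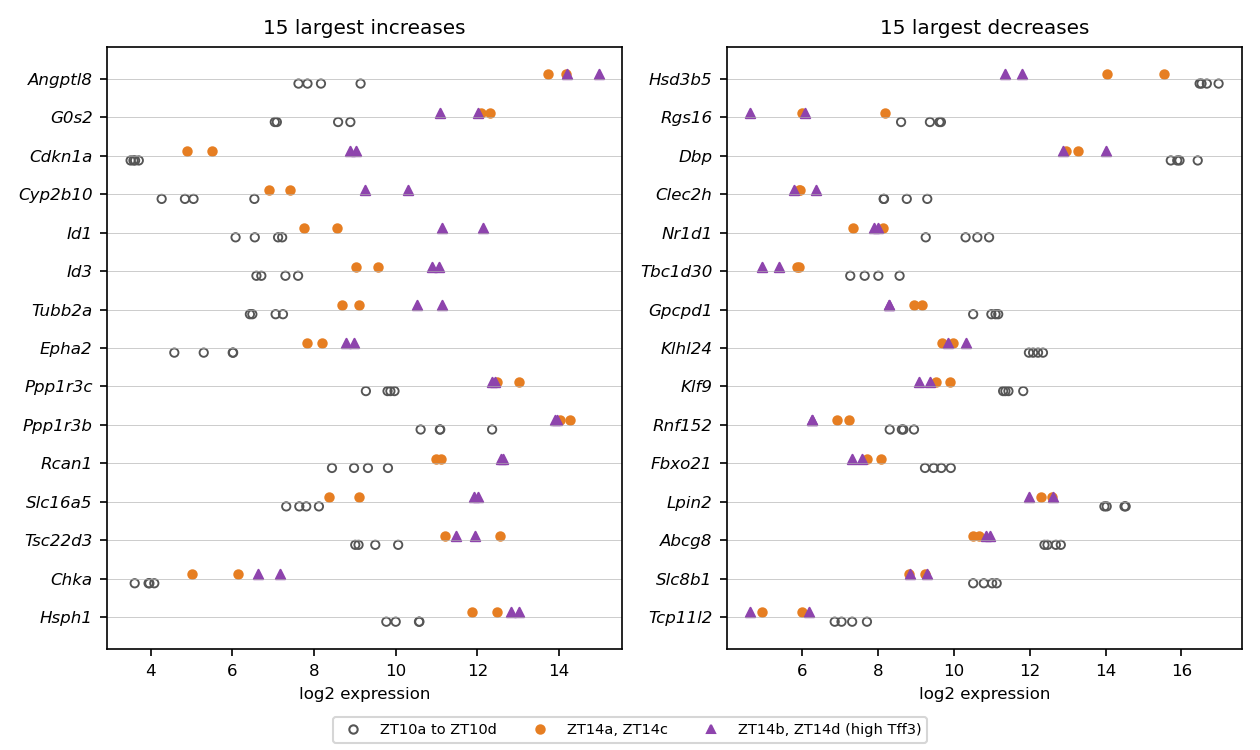
Log2 levels in each of the 8 arrays for the 15 largest called differences in each direction, with open circles for ZT10, filled circles for ZT14a and ZT14c and triangles for ZT14b and ZT14d. The triangles lie apart from the filled circles for Cdkn1a, Id1 and Hsd3b5, and close to them for Angptl8, Ppp1r3c and Klhl24.

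Hsd3b5, a hydroxysteroid dehydrogenase that is higher in male than in female mouse liver, had the largest difference downward. It was at 16.53, 16.48, 16.67 and 16.98 at ZT10 and at 14.04, 11.36, 15.53 and 11.79 at ZT14. All ZT14 arrays were lower, and ZT14b and ZT14d were lowest. The difference was -3.48 ± 0.75 (11.2-fold, adjusted p = 0.0135), and without the pair it was -1.88 (adjusted p = 0.388). The call was lost without ZT14b (0.0741) or ZT14d (0.0713) alone, and stood without all 5 arrays with high Tff3 (0.0182). Of 18 measured male-biased genes, Hsd3b5 alone passed (1.72% of all features passed in either direction), and 8 had all ZT14 arrays below all ZT10 arrays (3.76% of all features). In 9 of the 18, both ZT14b and ZT14d lay below ZT14a and ZT14c, against 22.0% of all genes.

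Rgs16, which ends signalling of G proteins, was at 9.37, 8.61, 9.66 and 9.62 at ZT10 and at 6.01, 6.09, 8.19 and 4.64 at ZT14. It fell by 3.08 on the log2 scale (SE 0.63, adjusted p = 0.0092), but its call was lost without the pair (adjusted p = 0.229) and without ZT14d alone (0.0537). Clec2h, of the C-type lectin family, was lower in every ZT14 array, at 5.78 to 6.37 against 8.15 to 9.30. Its difference was -2.59 with all arrays (adjusted p = 0.0156) and -2.66 without the pair, where the adjusted p was 0.12, and it also lost its call without ZT10b (0.0673) or ZT14d (0.0556). Tcp11l2 likewise fell by 1.79 and lost its call without the pair (adjusted p = 0.0809), without ZT10d (0.0515) or without ZT14d (0.0645).

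The remaining 11 of the 15 largest lower genes were called in both fits and with each array left out. Klhl24, which encodes a Kelch-family adaptor of ubiquitin ligases, was at 11.98, 12.22, 12.35 and 12.09 at ZT10 and at 9.97, 10.32, 9.70 and 9.84 at ZT14. Its arrays were tight within each time and did not overlap between times, and it fell by 2.20 on the log2 scale (SE 0.27, adjusted p = 8.2e-05). Gpcpd1, which splits glycerophosphocholine, fell by 2.27 (SE 0.26, adjusted p = 3.44e-05), and Tbc1d30, of the family of Rab GTPase activators, by 2.34 (SE 0.31, adjusted p = 0.000139). Rnf152 and Fbxo21, both parts of ubiquitin ligases, fell by 1.96 and 1.90, and Slc8b1, a mitochondrial sodium and calcium exchanger, by 1.81. Dbp, Nr1d1, Klf9, Lpin2 and Abcg8 also belong to these 11 and are described with their groups.

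Of the core clock list, 14 genes were measured, and 3 rose and 2 fell (1.72% of all features passed in either direction). The activator Arntl was at 5.39, 4.94, 4.89 and 5.98 at ZT10 and at 6.90, 7.29, 7.03 and 7.12 at ZT14. Its REV-ERB repressor Nr1d1 was at 9.26, 10.62, 10.31 and 10.93 at ZT10 and at 8.14, 7.90, 7.35 and 7.99 at ZT14. Neither gene's groups overlapped: Arntl was higher in all ZT14 arrays and Nr1d1 lower. Arntl rose by 1.79 ± 0.29 (adjusted p = 0.00131) and Nr1d1 fell by 2.44 on the log2 scale (SE 0.30, adjusted p = 6.99e-05), and the related Nr1d2 fell by 1.45 (SE 0.22, adjusted p = 0.000672).

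Of the repressor genes, Cry1 was at 7.19, 7.09, 7.22 and 7.51 at ZT10 and at 8.51, 8.91, 8.42 and 8.78 at ZT14, and rose by 1.40 ± 0.21 (adjusted p = 0.000456). Per2 was at 9.39, 9.01, 8.25 and 8.85 at ZT10 and at 10.22, 10.75, 10.38 and 10.89 at ZT14, and rose by 1.69 ± 0.31 (adjusted p = 0.00491). Both were higher in every ZT14 array, and the Per2 call was lost without ZT14b and ZT14d (1.43, adjusted p = 0.124). Without the pair, the other 4 clock genes passed (adjusted p from 0.00017 for Nr1d2 to 0.0416 for Arntl).

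The other 9 clock genes did not pass. Clock differed by 0.64 ± 0.19 (adjusted p = 0.0818) and Bhlhe41 by -1.45 ± 0.43 (adjusted p = 0.0969), and each had ZT10 and ZT14 arrays that did not overlap, as did Per3 at -0.95 (adjusted p = 0.216). Cry2, Rora, Npas2 and Per1 were between -0.075 and 0.075, with signs that changed on leaving out arrays and, for Npas2, levels near background. Per1 was at 6.41 in ZT14a and at 7.87 to 8.17 in the other ZT14 arrays. The median over the 14 genes was 0.03, against -0.015 over all features.

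The promoters of 2 called clock genes are shown because they hold the sequence through which the loop acts on each: a REV-ERB and ROR element (RORE) in Arntl and an E-box in Cry1. The sequences are the RefSeq promoters of build GRCm38.p6, from 250 bases before to 50 after the gene's start, for Arntl at chr7:113207261-113207560 on the plus strand and for Cry1 at chr10:85185005-85185304 on the minus strand, written 5′ to 3′ along the gene. Capitals mark TAGGTCA in Arntl, from base 281, and CACGTG in Cry1, from base 191.
Arntl: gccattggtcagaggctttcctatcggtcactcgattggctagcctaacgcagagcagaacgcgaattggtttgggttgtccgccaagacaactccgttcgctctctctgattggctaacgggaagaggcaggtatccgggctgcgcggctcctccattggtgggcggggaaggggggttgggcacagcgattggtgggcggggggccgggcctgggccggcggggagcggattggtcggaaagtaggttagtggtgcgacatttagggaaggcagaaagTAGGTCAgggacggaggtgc
Cry1: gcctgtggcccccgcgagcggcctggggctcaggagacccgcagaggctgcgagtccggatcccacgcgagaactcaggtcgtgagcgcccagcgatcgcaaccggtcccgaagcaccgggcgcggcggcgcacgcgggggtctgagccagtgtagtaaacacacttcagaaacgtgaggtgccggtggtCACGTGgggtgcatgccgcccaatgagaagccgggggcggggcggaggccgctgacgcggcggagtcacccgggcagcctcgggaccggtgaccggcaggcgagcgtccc
Over the 15691 measured genes with a promoter in that table, 9.26% held CACGTG and 2.63% held TAGGTCA on either strand. Of the 12 core clock genes with a promoter, 4 (33.3%) held CACGTG and 1, Arntl, held TAGGTCA. A match describes these letters in this window and no more.

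Dbp, a transcription factor of the PAR bZIP family that acts on D-box sequences, is a direct output of the clock. It was at 15.72, 15.95, 16.43 and 15.89 at ZT10 and at 13.27, 14.02, 12.97 and 12.89 at ZT14. No arrays overlapped, and Dbp fell by 2.71 on the log2 scale (SE 0.39, 6.54-fold, adjusted p = 0.000308; -2.88 without the pair, adjusted p = 0.00414). Among 13 measured PAR bZIP factors and targets, Dbp fell and Cyp2b10 rose (0.752% and 0.964% of all features). Ppara, which drives fatty acid oxidation, stood at -0.80 (adjusted p = 0.107).

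Of 16 other genes known for large daily cycles in liver, 3 rose (Tsc22d3, Cdkn1a and Slc45a3) and 2 fell (Rgs16 and Rnf125, a ubiquitin ligase), where 1.72% of all features passed in either direction. Slc45a3 was at 5.60, 5.83, 5.50 and 6.26 at ZT10 and at 7.47, 6.78, 9.35 and 7.50 at ZT14. It was higher in every ZT14 array, and highest in ZT14c rather than in the pair, and rose by 1.98 ± 0.35 (adjusted p = 0.00268; 2.61 without the pair, adjusted p = 0.00119). Rnf125 fell by 1.63 (SE 0.32, adjusted p = 0.00652), a call lost without the pair (adjusted p = 0.216).

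Among the 34 pathway lists, the heat shock genes, which encode chaperones that fold and refold proteins and their co-chaperones, had the most calls. Of 19 measured members, 13 rose and 0 fell, where 0.964% of all features rose. In 14 of the 19 all ZT14 arrays lay above all ZT10 arrays (3.77% of all features), all 19 differences were above 0, and their median was 1.37, against -0.015 over all features. Without ZT14b and ZT14d, 6 of the 13 passed (0.234% of all features rose) and the median was 1.24, and without all 5 arrays with high Tff3 9 passed. Both high-Tff3 arrays lay above the other ZT14 arrays for 8 of the 19, against 23.0% of all genes. The summed log2 level of the list was 16.13 to 16.29 at ZT10, 16.89 to 16.97 in ZT14a and ZT14c and 17.16 to 17.22 in ZT14b and ZT14d.

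Hsp90aa1, the inducible cytosolic HSP90, was at 12.79, 12.78, 12.97 and 13.49 at ZT10 and at 15.32, 15.31, 15.22 and 15.35 at ZT14. Its ZT14 arrays lay close together, from 15.22 to 15.35, and all were above the ZT10 arrays. It rose by 2.29 ± 0.37 (4.90-fold, adjusted p = 0.00106), and by 2.26 without the pair (adjusted p = 0.0309).

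Hspb1, the small heat shock protein HSP27, was at 5.91, 6.72, 6.20 and 6.09 at ZT10 and at 7.76, 8.73, 8.75 and 8.39 at ZT14. Bag3, the co-chaperone that links HSP70 to small heat shock proteins, was at 7.52, 7.39, 6.70 and 6.76 at ZT10 and at 9.44, 9.63, 8.72 and 8.80 at ZT14. The groups of both genes were separate, and ZT14b and ZT14d did not stand apart in either. Hspb1 rose by 2.18 ± 0.36 (adjusted p = 0.00141; without the pair 0.0422) and Bag3 by 2.06 ± 0.31 (adjusted p = 0.000444; without the pair 0.0125).

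Hspa1b, an inducible HSP70, was at 6.92, 6.06, 6.69 and 6.28 at ZT10 and at 9.18, 8.90, 7.13 and 8.81 at ZT14, so that ZT14c was the low array of its group. It rose by 2.02 ± 0.30 (adjusted p = 0.000424), and its near-identical copy Hspa1a stood at 0.64 without a call, so the division of signal between those copies is uncertain. Chordc1 and Fkbp4, both partners of HSP90, rose by 1.59 ± 0.22 and 1.53 ± 0.21 (adjusted p = 0.000163 and 0.000231) and were also called without the pair.

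Hsph1, an HSP110-class partner of HSP70, rose by 2.32 ± 0.42 (adjusted p = 0.00326), from 9.77 to 10.58 at ZT10 to 12.49, 12.83, 11.87 and 13.02 at ZT14, and had an adjusted p of 0.108 without the pair and 0.0461 without all 5 arrays with high Tff3. The other 6 called members (Cacybp, Ahsa1, Hspa4l, Dnajb1, Stip1 and Dnajb4) rose by 0.83 to 1.67 and did not pass without the pair, with adjusted p from 0.0755 to 0.279. Dnajb4 was the only one of the 13 to lose its call when 1 array was left out (ZT10a, ZT10b, ZT10c, ZT14b or ZT14d, adjusted p up to 0.116). The uncalled members were Ahsa2, Hspa1a, Hspe1, Tcp1, Hspa4 and Hspd1, at 0.17 to 0.64. Hspd1 and Hspe1 encode the mitochondrial chaperonins and Tcp1 a subunit of the cytosolic one.

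**Figure D3:**
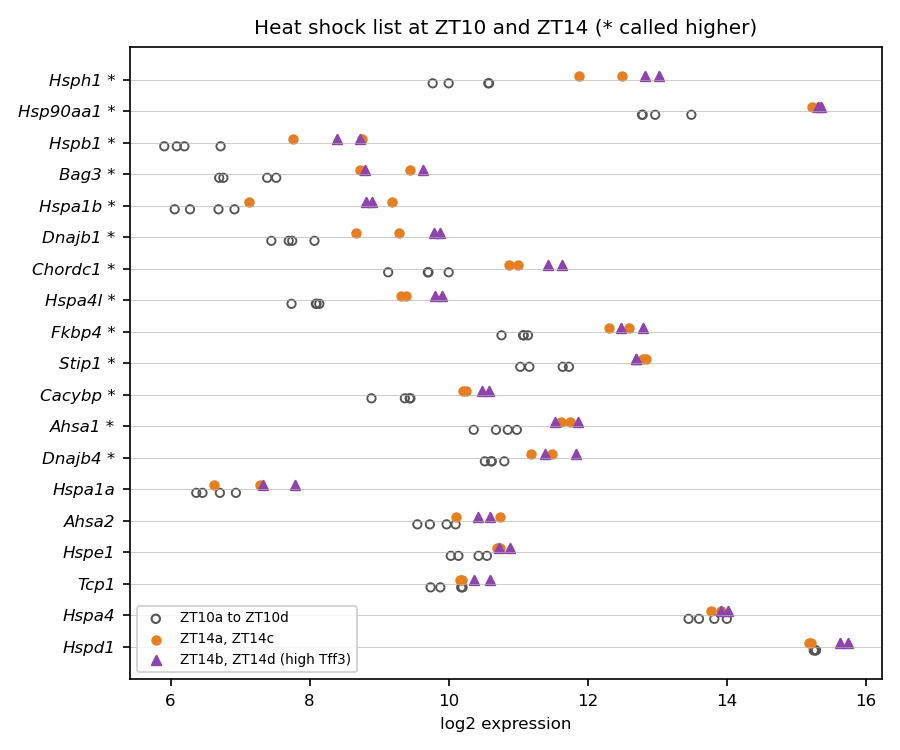
Log2 levels of the 19 measured heat shock genes in each of the 8 arrays, ordered by their ZT14 minus ZT10 difference. The ZT14 arrays lie above all ZT10 arrays for 14 genes, and the groups meet for members at the low end such as Hspd1, whose difference was 0.17.

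Promoters of the called heat shock genes were read for the core of the heat shock element, the sequence that heat shock factors bind, here GAANNTTC. Of 12 called members with a promoter, 6 (50%) held it, against 8.10% of all measured genes and 9.32% of the 161 genes that rose at ZT14 and have a promoter. The promoters of Hsph1, at chr5:149636287-149636586 on the minus strand, and Hspb1, at chr5:135887669-135887968 on the plus strand, are shown because these had the largest differences among the called members with this sequence. Both are from RefSeq (GRCm38.p6) and capitals mark the match, from base 292 in Hsph1 and from bases 134 and 154 in Hspb1.
Hsph1: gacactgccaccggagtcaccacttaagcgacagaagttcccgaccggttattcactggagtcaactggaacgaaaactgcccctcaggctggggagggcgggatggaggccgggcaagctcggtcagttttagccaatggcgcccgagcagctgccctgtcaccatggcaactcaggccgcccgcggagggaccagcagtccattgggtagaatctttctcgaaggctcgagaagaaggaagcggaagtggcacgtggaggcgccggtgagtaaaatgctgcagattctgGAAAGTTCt
Hspb1: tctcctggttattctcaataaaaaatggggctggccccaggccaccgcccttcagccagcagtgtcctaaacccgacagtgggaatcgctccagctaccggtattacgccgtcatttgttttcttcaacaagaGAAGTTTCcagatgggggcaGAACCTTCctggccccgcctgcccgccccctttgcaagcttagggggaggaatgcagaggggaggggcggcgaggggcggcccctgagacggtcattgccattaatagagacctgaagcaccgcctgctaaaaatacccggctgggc
The matches differ in place: in Hspb1 both lie before the gene's start, and in Hsph1 the match lies in the 50 bases after it.

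The list of the unfolded protein response, which holds chaperones of the endoplasmic reticulum and their regulators, gave 1 call in 23 (1.72% of all features): the transcription factor Ddit3 (CHOP) rose by 1.11 ± 0.27 (adjusted p = 0.0353). In 9 of the 23 all ZT14 arrays lay above all ZT10 arrays, against 3.77% of all features, and the median difference was 0.37. Creld2, an endoplasmic reticulum stress-inducible protein, was at 8.06 to 8.84 at ZT10 and at 12.11, 11.35 and 10.57 in ZT14a, ZT14c and ZT14d, with ZT14b lower than these but above every ZT10 array (2.54 ± 0.69, adjusted p = 0.0578), and Hyou1, a chaperone of that compartment, at 1.32 ± 0.35 (adjusted p = 0.0524). Here ZT14b and ZT14d lay below ZT14a and ZT14c in 10 of the 23 genes and above in 2 (22.0% and 23.0% of all genes). The median without the pair was 0.52. The Ddit3 call was lost without the pair (adjusted p = 0.255) and without any 1 of ZT10a, ZT10b, ZT10c, ZT14a, ZT14b and ZT14d (up to 0.115).

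The cold-inducible RNA-binding proteins, which move opposite to body temperature, gave 0 calls in 3 (2 at an unadjusted p under 0.05). Cirbp stood at -0.70 (adjusted p = 0.351), Srsf5 at -0.75 (adjusted p = 0.158) and Rbm3 at 0.41 (adjusted p = 0.457).

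Of 20 genes known to respond to glucocorticoids, 4 rose (Tsc22d3, Fkbp5, Lcn2 and Cdkn1a) and 1, Klf9, fell (0.964% and 0.752% of all features). Fkbp5, a co-chaperone of the glucocorticoid receptor, was at 11.60, 11.49, 11.87 and 11.66 at ZT10 and at 13.66, 13.09, 13.01 and 12.07 at ZT14. All ZT14 arrays were higher, with ZT14d the lowest of them, and Fkbp5 rose by 1.30 ± 0.29 (adjusted p = 0.0156; 1.68 without the pair, adjusted p = 0.0105). Its call was lost without ZT10b, ZT14a or ZT14b (adjusted p up to 0.0563). Klf9, a zinc-finger factor, was at 11.30 to 11.83 at ZT10 and at 9.89, 9.36, 9.53 and 9.08 at ZT14, and fell by 2.02 on the log2 scale (SE 0.26, adjusted p = 0.000137; without the pair 0.0103), the 1 call among 13 Kruppel-like factors.

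Lcn2, an iron-binding acute phase protein, rose by 2.46 ± 0.54 (adjusted p = 0.0156; without the pair 0.23) and lost its call without ZT10a, ZT10c, ZT10d or ZT14b (up to 0.0816). It was the only call among 23 acute phase genes (1.72% of all features passed in either direction). The glucocorticoid-responsive Sgk1 split by array. It was at 7.26 and 7.75 in ZT14a and ZT14c and at 9.52 and 11.03 in ZT14b and ZT14d, and did not pass (adjusted p = 0.245). Such a split was not general in the glucocorticoid list. The pair lay above both other ZT14 arrays for 5 of the 20 genes and below for 5 (23.0% and 22.0% of all genes).

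Immediate early genes, which are induced within minutes of a stimulus, gave 0 calls in 24 by limma, with 8 at an unadjusted p under 0.05. Their summed log2 level was 12.40 to 13.55 at ZT10 and at ZT14 ran from 12.32 in the lowest array, which was not of the pair, to 15.27 and 15.85 in ZT14b and ZT14d. The other ZT14 array outside the pair lay just below the pair and above every ZT10 array. These sums, which follow the members of highest level, set the lowest array apart. Gene by gene, the pair lay above both other ZT14 arrays for 11 of the 24 and below for 4 (23.0% and 22.0% of all genes). The median difference of the list was 0.23 with the pair and 0.03 without it. Dusp1, a phosphatase of MAP kinases, was at 10.96 in ZT14a and at 14.78 to 15.70 in the other 3 ZT14 arrays. Myc was at 7.01 in ZT10a and 10.96 to 11.96 in the other ZT10 arrays against 5.39 to 8.11 at ZT14 (-3.18 ± 0.90, adjusted p = 0.0709).

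Of 15 measured genes of the actin cytoskeleton and its factor SRF, 2 rose (0.964% of all features). The pair lay above both other ZT14 arrays for 11 of the 15 and below for 2 (23.0% and 22.0% of all genes). The median difference was 0.54, and 0.175 without the pair. Ccn1, a secreted matrix protein and target of SRF and YAP, was at 7.56, 8.10, 7.65 and 7.61 at ZT10 and at 9.08, 9.60, 9.38 and 9.79 at ZT14. It was higher in every ZT14 array and rose by 1.73 ± 0.27 (adjusted p = 0.000755; without the pair 0.041). Myh9, a non-muscle myosin, rose by 0.87 ± 0.18 (adjusted p = 0.0119), a call lost without the pair (0.291), without ZT14b (0.0648) or without ZT14d (0.0517).

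Of 14 glycogen genes, 2 rose and 1 fell (0.964% and 0.752% of all features): the phosphatase subunits Ppp1r3b and Ppp1r3c rose and Phka2, a subunit of the kinase that starts glycogen breakdown, fell by 0.86 (SE 0.19, adjusted p = 0.0195). The Phka2 call was lost without the pair (-0.955, adjusted p = 0.0873) and without ZT10c, ZT14a or ZT14d (up to 0.0804). The synthase and the other enzymes of the list did not pass, and the list's median was -0.06. Gluconeogenesis gave 0 calls in 11 (2 at an unadjusted p under 0.05). Among 11 genes of glycolysis and glucose entry, Pfkfb3, which makes the activator of phosphofructokinase, fell by 1.45 (SE 0.34, adjusted p = 0.0261). That call was lost without the pair (-1.575, adjusted p = 0.124). It was also lost without ZT10a, ZT10b, ZT10c, ZT14a or ZT14d (up to 0.0866), and stood without all 5 arrays with high Tff3 (0.0441).

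Among 21 insulin and IGF pathway genes, Irs2, the insulin receptor substrate that fasting raises in liver, fell (0.752% of all features fell). It was at 9.32, 9.09, 9.45 and 9.11 at ZT10 and at 7.07, 7.92, 7.99 and 8.13 at ZT14. The ZT14 arrays were all lower, with ZT14a lowest, and the difference was -1.47 ± 0.38 (adjusted p = 0.0451). Its call was lost without the pair, although the difference was then larger in size, at -1.71 (adjusted p = 0.124). The call was also lost on leaving out any 1 of the 8 arrays (0.0566 to 0.125). Igfbp1, a binding protein that insulin lowers, was at 7.12 to 7.91 at ZT10 and at 4.43, 5.82, 4.82 and 6.42 at ZT14, without overlap, and did not pass (-2.17 ± 0.74, adjusted p = 0.157).

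Among 22 genes of fatty acid and triglyceride synthesis, 2 rose and 1 fell (0.964% and 0.752% of all features). Fasn, the fatty acid synthase, was at 13.99, 13.20, 15.03 and 13.71 at ZT10 and at 15.27, 15.14, 15.44 and 15.11 at ZT14. It rose by 1.26 ± 0.29 (adjusted p = 0.0208), and ZT10c came close to the ZT14 arrays. Agpat2, an acyltransferase of the same route, rose by 0.95 ± 0.22 (adjusted p = 0.0248). Lpin2, a phosphatidate phosphatase, was at 13.97 to 14.53 at ZT10 and at 12.29, 12.62, 12.60 and 11.99 at ZT14, and fell by 1.88 (SE 0.27, adjusted p = 0.00033; without the pair 0.0118). Without the pair the difference was 1.37 for Fasn (adjusted p = 0.109) and 0.84 for Agpat2 (adjusted p = 0.257). Fasn also lost its call without ZT10b, ZT10d, ZT14b or ZT14c (up to 0.0973) and Agpat2 without ZT10a, ZT10b, ZT10c, ZT14b or ZT14d (up to 0.0989).

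Of 15 lipid droplet and lipase genes, G0s2 and Plin5, a droplet coat protein, rose, and of 16 lipoprotein and ANGPTL genes Angptl8 alone (0.964% of all features rose). Plin5 rose by 0.86 ± 0.21 (adjusted p = 0.0366; without the pair 0.319; up to 0.147 without 1 of ZT10b, ZT10c, ZT10d, ZT14b, ZT14c and ZT14d). Angptl4, another lipoprotein lipase inhibitor and one that fasting raises, was at 11.18 to 12.38 at ZT10 and at 11.23, 9.14, 11.69 and 9.94 at ZT14, so that it was low only in ZT14b and ZT14d (adjusted p = 0.14). Fatty acid oxidation and ketogenesis gave 0 calls in 24 (5 at an unadjusted p under 0.05).

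Of 19 cholesterol synthesis and uptake genes, 1 rose and 2 fell (0.964% and 0.752% of all features), none of them called without the pair. The median difference of the list was nonetheless lower without the pair, at -0.45 against -0.115 with it. The pair lay above both other ZT14 arrays for 11 of the 19 and below for 1 (23.0% and 22.0% of all genes). Insig1, which retains the SREBP complex in the endoplasmic reticulum, rose by 0.98 ± 0.21 (adjusted p = 0.0133). Stard4, a sterol carrier, fell by 1.03 (SE 0.20, adjusted p = 0.00579) and Hmgcs1, an early enzyme of the route, by 0.92 (SE 0.24, adjusted p = 0.0497). Without the pair the differences were 0.925, -0.925 and -1.20 (adjusted p = 0.141, 0.111 and 0.0755). Stard4 passed without all 5 arrays with high Tff3 (0.0469). The call of Insig1 was lost without ZT10b or ZT14d (up to 0.0673), and that of Hmgcs1 without any 1 array but ZT10a (up to 0.207).

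In the list of bile acid genes (synthesis, transport and their regulators, 25 measured), 3 fell and 0 rose (0.752% of all features fell), the median was -0.47, and 8 had all ZT14 arrays below all ZT10 arrays (3.76% of all features). ZT14b and ZT14d both lay below ZT14a and ZT14c in 12 of the 25 and above in 6 (22.0% and 23.0% of all genes). Without the pair the median was -0.32. Abcg8, which with Abcg5 exports sterols into bile, was at 12.69, 12.39, 12.47 and 12.82 at ZT10 and at 10.51, 10.96, 10.66 and 10.86 at ZT14. It was lower in all ZT14 arrays, and the pair was not the lowest, and it fell by 1.84 (SE 0.26, adjusted p = 0.000279; -2.01 without the pair, adjusted p = 0.00414). Hsd3b7, an enzyme of bile acid synthesis, fell by 1.05 (SE 0.25, adjusted p = 0.0287) and Abcc2, the canalicular export pump, by 0.62 (SE 0.15, adjusted p = 0.0351).

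The calls of Hsd3b7 and Abcc2 were lost without the pair (-1.01 and -0.70, adjusted p = 0.217 and 0.139). Hsd3b7 also lost its call without any 1 array but ZT10a and ZT14c (up to 0.115), and Abcc2 without any 1 array but ZT14c (up to 0.0876). Cyp8b1, the sterol 12-hydroxylase, was at 12.27 to 13.33 at ZT10, at 12.25 and 12.55 in ZT14a and ZT14c and at 9.71 and 9.88 in ZT14b and ZT14d (-1.62 ± 0.44, adjusted p = 0.0608).

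Of 23 autophagy and lysosome genes, 3 fell and 0 rose (0.752% and 0.964% of all features). Ulk1, the kinase that starts autophagy, was at 8.30, 8.77, 8.74 and 8.82 at ZT10 and at 6.98, 7.48, 7.39 and 6.53 at ZT14. The groups did not overlap, and Ulk1 fell by 1.56 (SE 0.22, adjusted p = 0.000231; without the pair 0.00514). Atg14, of the autophagy lipid kinase complex, fell by 0.76 (SE 0.17, adjusted p = 0.0147) and Gabarapl1, an ATG8 protein of autophagosomes, by 1.23 (SE 0.31, adjusted p = 0.0404). Without the pair these 2 stood at -0.785 and -1.39 (adjusted p = 0.109 and 0.139). Atg14 lost its call without ZT10d or ZT14b (up to 0.0661) and Gabarapl1 without any 1 array but ZT10c (up to 0.134).

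Flcn, folliculin, which acts with Fnip1 in amino acid signalling to mTORC1, was at 8.42, 8.86, 9.23 and 9.35 at ZT10 and at 7.39, 8.19, 7.43 and 7.80 at ZT14. It was the 1 call among 15 genes of that list and fell by 1.26 (SE 0.25, adjusted p = 0.00689; -1.55 without the pair, adjusted p = 0.0121). Fnip1, outside the lists and chosen after its value was seen, fell by 1.49 and was also called without the pair. Ribosome biogenesis gave 2 higher and 0 lower among 28 (0.964% and 0.752% of all features). Nop58, of the box C/D particles that modify ribosomal RNA, rose by 1.22 ± 0.25 (adjusted p = 0.0092; without the pair 0.121; without all 5 arrays with high Tff3 0.0342). Nop16 rose by 0.81 ± 0.17 (adjusted p = 0.011; without the pair 0.0326), but did not pass in a fit of the 8 arrays alone (0.0521). In 8 of the 28 all ZT14 arrays lay above all ZT10 arrays (3.77% of all features).

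Of 30 drug and xenobiotic metabolism genes, 4 rose and 0 fell (0.964% and 0.752% of all features). Fmo5, a flavin monooxygenase, was at 16.78, 16.47, 16.36 and 16.27 at ZT10 and at 17.40, 17.78, 17.33 and 17.74 at ZT14. It was higher in all ZT14 arrays and rose by 1.09 ± 0.16 (adjusted p = 0.000308; without the pair 0.0326). Gsta2, a glutathione transferase, rose by 1.94 ± 0.42 (adjusted p = 0.0146) and Sult1a1, a sulfotransferase, by 1.13 ± 0.28 (adjusted p = 0.0401), and Cyp2b10 is described above. Neither Gsta2 nor Sult1a1 passed without the pair (adjusted p = 0.312 and 0.582), without ZT10c, ZT10d, ZT14b or ZT14d (up to 0.0749 and 0.167) or, for Sult1a1, without ZT10a or ZT10b (0.0522 and 0.0767).

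The other metabolic lists gave at most 1 call each, where 1.72% of all features passed in either direction. In the urea cycle Nags, which makes the activator of its first enzyme, rose by 0.80 ± 0.19 (adjusted p = 0.0319), 1 of 7. Among 19 SLC25 mitochondrial carriers Slc25a47 fell by 1.39 (SE 0.26, adjusted p = 0.0056). Among 15 genes of adiponectin receptors and AMPK, the pathway of the missing hormone, Prkab1, a regulatory subunit of AMPK, rose by 0.75 ± 0.18 (adjusted p = 0.0279). None of these 3 passed without the pair (adjusted p = 0.541, 0.12 and 0.335). Nags lost its call without ZT10b, ZT10c, ZT10d, ZT14b or ZT14d (up to 0.146), and Prkab1 without any 1 array but ZT10a and ZT14a (up to 0.107). There were 0 calls by limma among 26 amino acid and one-carbon genes (5 at an unadjusted p under 0.05), 16 NAD genes (5), 21 ribosomal protein genes (4) and 26 respiratory chain genes (0).

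Markers of cells other than hepatocytes gave 2 calls among the 76 measured over 10 lists of non-parenchymal, blood, fat, pancreas and gut cells (2.63%), against 1.72% of all features. Sox9, a factor of bile duct cells, was at 5.71, 6.79, 5.83 and 5.01 at ZT10 and at 7.08, 8.08, 7.44 and 7.56 at ZT14 (1.71, adjusted p = 0.00907; without the pair 0.178), while Krt7, Krt19 and Epcam, which define those cells, differed by -0.05, 0.07 and 0.24. Clec4f, which defines Kupffer cells, fell by 0.72 (adjusted p = 0.0444; without the pair 0.259), and the list's summed log2 level was 10.79 to 11.74 at ZT10, 10.42 to 10.72 in ZT14a and ZT14c and 11.08 to 11.45 in the pair. The pair differed in other marker sums. Stellate cell markers summed to 15.02 to 15.37 in it and 13.91 to 14.38 in the other 6 arrays, and cholangiocyte markers to 13.02 to 13.03 and 11.34 to 11.93. Such sums follow the members of highest level. Both arrays of the pair lay above ZT14a and ZT14c for 6 of 9 stellate markers and below for 0. For the 7 cholangiocyte markers they lay above for 2 and below for 2. Muc2 and Agr2, which define goblet cells, were at 2.73 to 4.36 in all 8 arrays, near background, also where Tff3 was high. The part of these cells in the calls was not tested.

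Cell cycle genes showed the same pair. Of 29 measured, Cdkn1a and Plk2, a kinase of the polo family, rose and 0 fell (0.964% and 0.752% of all features). Plk2 rose by 1.55 ± 0.31 (adjusted p = 0.0085; without the pair 0.257; with the 8 arrays alone 0.0585). In 20 of the 29, ZT14b and ZT14d both lay above ZT14a and ZT14c, against 23.0% of all genes. The summed log2 level was 13.72 to 13.92 in the pair, 12.59 to 12.80 in the other ZT14 arrays and 12.80 to 13.41 at ZT10.

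Placed in the whole day, most of the called genes had an extreme at 1 of the 2 times compared. Of the 198 genes that rose, 117 had their highest mean of the 6 times at ZT14, 45 at ZT22 and 29 at ZT18, and 134 had their lowest at ZT10. Of the 153 that fell, 108 had their lowest mean at ZT14 and 91 their highest at ZT10. The choice of genes that differ between these times favours such extremes.

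By their means, some genes had an extreme at ZT14 and others were between extremes. Hspa1b had a mean log2 level of 8.51 ± 0.93 (SD, n = 4) at ZT14 and of 5.88 to 6.49 at the other 5 times, and Klf9 and Klhl24 had their lowest means there, at 9.46 and 9.96, and the next lowest at ZT18, at 10.50 and 10.70, although single arrays of Klhl24 at ZT18 and ZT22 lay within its range at ZT14. Ppp1r3c climbed from 9.73 at ZT10 to 12.57 at ZT14 and 15.53 at ZT22, and Arntl from 5.30 to 7.08 and 10.55. Nr1d1 went from 12.00 at ZT6 through 10.28 at ZT10 and 7.84 at ZT14 to 5.40 at ZT22. The steps between these other times were not tested gene by gene here.

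**Figure D4:**
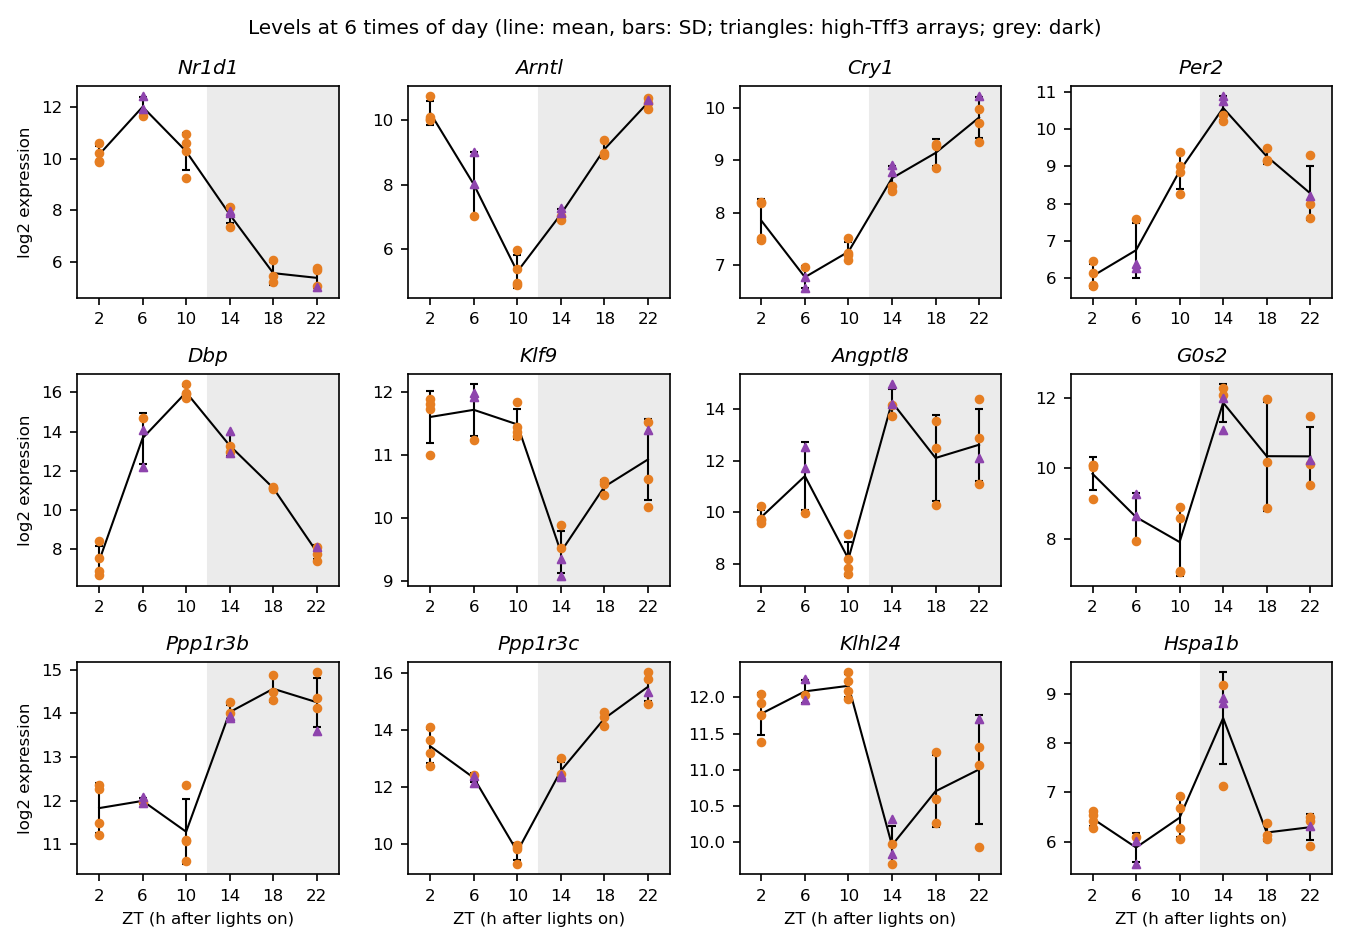
Log2 levels of 12 named genes in all 22 arrays against hours after lights on, with lines through the time means, bars for the SD, grey for darkness and triangles for the 5 arrays with high Tff3. Per2, Angptl8, G0s2 and Hspa1b have their highest mean at ZT14 and Klf9 and Klhl24 their lowest, while Ppp1r3c, Cry1 and Arntl go on to higher levels at ZT22.

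The step across lights on, ZT2 minus ZT22, shares no array with the step across lights off and served as its counterpart. It gave 29 called features (0.131%), or 28 genes, of which 5 were higher and 23 lower at ZT2. Of the 351 genes called across lights off, 249 passed the test of the 2 steps against each other and 102 did not. That test called 578 features (2.6%) in all. The 351 genes were chosen for their difference across lights off, which is also a term of that test. The choice therefore raises the share that passed, and 249 does not measure how distinct the step is. Without the 5 arrays with high Tff3 the counts of features were 156 across lights off, 44 across lights on and 272 for the difference between the steps.

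The genes called at both steps numbered 11, and each went in opposite directions. Nr1d1 and Nr1d2 fell by 2.44 and 1.45 across lights off and rose by 4.75 and 2.24 across lights on, and Slc25a47 and Oga, the enzyme that removes O-GlcNAc, ran the same way. Ppp1r3c, Ppp1r3b, Hspb1, Per2, Cry1, Acot3, an acyl-CoA thioesterase, and Baz1b, a chromatin remodelling subunit, rose across lights off and fell across lights on, for example Ppp1r3b, which rose by 2.75 and then fell by 2.43. Without the 5 arrays, 6 of the 11 were called across lights off, 9 across lights on and all 11 for the difference between steps. These 11 were chosen in the same data for calls at both steps, and they ran in opposite directions. The last count follows from that and adds no support. Of the 19 heat shock genes, 12 differed between the steps (9 without the 5 arrays), with a median of -0.33 across lights on, and 1, Hspb1, was called there. Oga, Acot3 and Baz1b were named only because they are in this group of 11.

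Promoters of all called genes were searched for the same sequences, both strands, as a description. Promoters were at hand for 161 genes that rose and 128 that fell. CACGTG was in 14.3% of the former and 15.6% of the latter, against 9.26% of all measured genes. TAGGTCA was in 4.35% and 0.781%, against 2.63%, and the D-box sequences TTATGTAA and TTACGTAA were in 1.86% and 0.781%, against 1.15%. TGACGTCA, the cyclic AMP response element (CRE), was in 7.45% of the genes that rose and 4.69% of those that fell, against 2.63% of all. Called genes and all genes were not matched for base composition.

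The promoters of Tubb2a and Epha2 are shown because they hold this CRE and belong to the genes of largest difference that were also called without ZT14b and ZT14d. Tubb2a is from chr13:34077959-34078258 on the minus strand and Epha2 from chr4:141300971-141301270 on the plus strand (RefSeq, GRCm38.p6), and capitals mark TGACGTCA, from base 192 and base 218.
Tubb2a: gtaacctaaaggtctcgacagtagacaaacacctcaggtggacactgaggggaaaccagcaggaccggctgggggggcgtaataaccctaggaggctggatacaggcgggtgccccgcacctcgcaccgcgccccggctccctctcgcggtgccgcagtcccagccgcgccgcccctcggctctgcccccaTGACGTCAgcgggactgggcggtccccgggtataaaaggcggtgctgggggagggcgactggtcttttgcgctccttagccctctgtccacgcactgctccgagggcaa
Epha2: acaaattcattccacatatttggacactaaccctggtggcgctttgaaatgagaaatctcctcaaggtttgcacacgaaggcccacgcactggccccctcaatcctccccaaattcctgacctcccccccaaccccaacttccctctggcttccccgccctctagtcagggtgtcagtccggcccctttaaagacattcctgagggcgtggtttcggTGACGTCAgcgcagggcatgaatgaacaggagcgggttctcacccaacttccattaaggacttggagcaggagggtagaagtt
In both, the match lies before the gene's start. Whether any factor was bound there was not measured.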

How the data were processed

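RNA of whole liver (100 ng per array, TRIzol extraction, per the labels' protocols) was hybridised to Clariom S arrays, 1 per sample. The deposited table holds normalized values of 22206 features for 22 arrays with 2 decimals. The authors' scale is read as log2 from the range of the values, while normalization and software are not stated in the labels or the table. Scanner files were not used here, no detection calls were at hand, and the number of arrays, 4 and 4, limits the precision.

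Features were named through the platform annotation, with symbols checked against RefSeq (GRCm38.p6). A gene with several features was represented by the one of highest mean. A linear model with 6 time means was fitted to all 22 arrays with limma 3.58.1 (lmFit, eBayes) in R 4.3.3, and p-values were adjusted by Benjamini-Hochberg over all features, at a threshold of 0.05. On simulated data for the ZT14 minus ZT10 comparison over 22206 features, 59 of 100 features changed by 1 and 100 of 100 changed by 2 on the log2 scale were called, with 5 false calls. The simulated noise was normal and independent between features and arrays. It held no shared deviation of ZT14b and ZT14d, so the false calls there do not measure the error among the real calls. Summed levels are log2 of the summed linear values of a list.

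The members and the 34 pathway and 11 marker lists were chosen with earlier results of these data known. Named genes were the 15 largest called differences per direction without overlap between times (predicted genes left out), the core clock list, the 3 members of lowest adjusted p in each other pathway list, Adipoq and Tff3. Other names, such as further called members of a list, were chosen after their values were seen. Alternatives were quantile normalization, median centring, a level filter, limma's trend and robust options, array weights, the 8 arrays alone, a replicate block, and leaving out arrays. The replicate letters a to d are shared between times but did not pair the arrays: the deviations of arrays with the same letter correlated at -0.0198 to 0.0594.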

Additional observations from a re-analysis of the deposited data

Results flagged for a closer look

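In 12 of the 254 groups of 4 arrays formed by the 127 named genes at ZT10 and ZT14 (4.72%), 1 array lay far from the other 3 by Dixon's criterion, and chance alone gives about 1 in 20 (5%). At ZT14, ZT14a was the lone array for Per1 at 6.41 (others 7.87 to 8.17), Pgk1 at 13.68 (14.11 to 14.14) and Abcc2 at 16.2 (16.48 to 16.53), all low, and for Bdh1 at 13.09 (12.86 to 12.89), high. ZT14c was high for Ppp1r3c at 13.03 (12.36 to 12.47).

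At ZT10, ZT10b was high for Jund at 9.25 (8.78 to 8.86), Ccn1 at 8.1 (7.56 to 7.65) and Creb3l3 at 13.98 (13.57 to 13.64). ZT10a was high for Pfkfb3 at 9.92 (9.23 to 9.32) and low for Nop16 at 10.28 (10.38 to 10.4) and Ulk1 at 8.3 (8.74 to 8.82), and ZT10c was low for Nop58 at 7.96 (8.41 to 8.48). ZT14b and ZT14d were in none of these. Where they lay close together, a gap to 1 array could not single out either of them. They were not alike for every named gene, and the reason for their absence was not tested.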

How the results depend on the processing

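Against 381 features called between ZT14 and ZT10, quantile normalization gave 412, median centring 361, features above the median level 559, trend and robust options 467, a change of at least 1.5-fold 379 and an adjusted p under 0.01 138. Array weights gave 609 and the 8 arrays alone 248. The replicate block gave 331 (186 higher, 145 lower). Leaving out 1 array gave 188 to 469. Without ZT14b and ZT14d 105 passed, and without all 5 high-Tff3 arrays 156. For ZT2 minus ZT22 (29) and the difference of the steps (578), quantile normalization gave 25 and 580, and leaving out the 5 arrays 44 and 272. Of the 67 called named genes, 30 were called under every alternative and 40 with each array left out, and 0 changed sign. Of these calls, the 8 arrays alone ended 15 (Id1, Slc16a5, Prkab1, Sult1a1, Hsd3b7, Phka2, Nags, Fasn, Plk2, Hmgcs1, Nop16, Atg14, Myh9, Plin5 and Abcc2), trend and robust options 8 (Id1, Lcn2, Hsd3b5, Clec2h, Cyp2b10, Irs2, Slc16a5 and Cdkn1a), the replicate block 7 (Cyp2b10, Sult1a1, Irs2, Nags, Hmgcs1, Plin5 and Abcc2), array weights 2 (Irs2 and Hmgcs1) and quantile normalization 2 (Ddit3 and Abcc2). Of the 36 lost without ZT14b and ZT14d, 6 were called without all 5 arrays.

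Of the 60 uncalled named genes, 6 changed sign. Without ZT14b and ZT14d, and without the 5 arrays, Npas2 was at -0.08, Hk1 at -0.33, Per1 at -0.39 and Tff3 at -0.87. With 1 array left out, Npas2 ranged from -0.0083 to 0.23, Cry2 from -0.17 to 0.05, Rora from -0.09 to 0.13 and Per1 from -0.18 to 0.47. The cause was not tested. Levels near background limit Npas2, Adipoq, Cdkn1a and Chka.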
